A study of Mus musculus with 8 samples.

Results

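The lipid droplet genes of mouse tendon stem cells (TSCs) were examined through 10 genes that cover the coat of the droplet, the last step of triglyceride synthesis and the breakdown of the stored fat. They were chosen by symbol from the table of expression values, and 10 of 10 symbols were found among its 19301 genes. The coat genes were Plin2, Plin3, Plin4 and Plin5, the synthesis genes Dgat1 and Dgat2, the lipase genes Pnpla2 and Lipe, and the genes of the lipase inhibitors G0s2 and Hilpda. The TSCs were primary cells isolated from the patellar tendon of mice. One group was cultured in HFHG medium, which combines high glucose with palmitic acid, a saturated fatty acid, and the other in low glucose medium with the solvent DMSO. The mRNA was sequenced after 4 days of culture, from 4 libraries per group made with a stranded kit. Because glucose and palmitic acid were changed together, their parts in a difference between the groups cannot be told apart. The methods call the 4 libraries of a group biological replicates without naming separate animals, so p-values measure the spread between these libraries.

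A lipid droplet is a store of triglycerides and sterol esters in the cytoplasm, enclosed by a single layer of phospholipids and coated by proteins of the perilipin family. DGAT1 and DGAT2 add the last fatty acid to diacylglycerol, and the lipases ATGL (encoded by Pnpla2) and HSL (encoded by Lipe) remove fatty acids from the stored triglyceride and diacylglycerol in turn. Fatty acids supplied from outside are stored in this way in many cell types that are not adipocytes, where PLIN2 is the usual coat protein.

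Expression was given as FPKM, the reads of a gene divided by its length and by the mapped reads of the library, so that levels can also be compared between genes. The library totals behind the FPKM were between 34308108 and 37362725 reads. A gene was tested if it reached 0.5 FPKM in at least 4 of the 8 libraries, and limma was run on log2(FPKM + 0.1) with p-values adjusted by the Benjamini-Hochberg method over 11710 genes. A log2 fold change on this scale is HFHG minus low glucose and understates the change of genes with low values. The first principal component of the tested genes took 81.0% of the variance and separated the groups. On the second, with 4.18%, low glucose replicate 4 stood at 13.8 and the other 7 libraries between -7.93 and 2.49.

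Of the 10 droplet genes, 8 passed the filter. Of these, G0s2 reached 0.5 FPKM in 7 libraries and the other 7 genes in all 8, while Plin4 reached it in 2 libraries and Plin5 in 0. At an adjusted p-value below 0.05, Plin2, Lipe and Dgat2 were higher in HFHG (3 of 8 tested, against 34.0% of all tested genes), Plin3 and Hilpda were lower (2 of 8, against 30.8%), and G0s2, Pnpla2 and Dgat1 were not called. The 5 called droplet genes stand against 64.8% of all tested genes, so a call as such does not set them apart. Values of HFHG and low glucose did not overlap for the same 5 of 8 genes, compared with 59.2% of all tested genes. The study set a log2 fold change over 1 and a p-value under 0.05 as thresholds. Here they were applied to the limma fit with p-values before adjustment. Lipe and Dgat2 passed them upward, as did 3.68% of all tested genes (431, or 197 with a pseudocount of 1). Downward these thresholds were passed by 0 of the 8 and by 1.65% of all tested genes (193, or 106 with a pseudocount of 1).

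**Figure D1:**
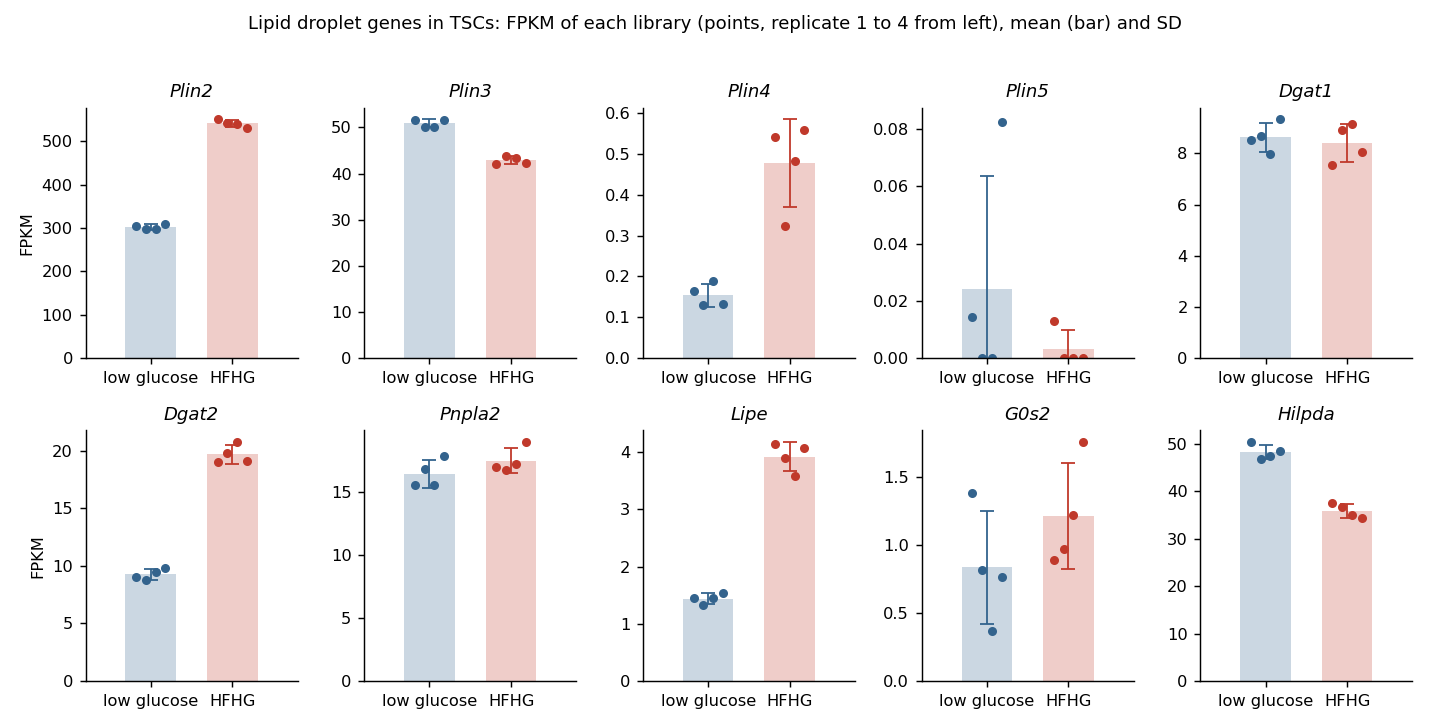
FPKM of the 10 droplet genes in the 4 low glucose (blue) and 4 HFHG (red) libraries, with points for libraries, bars for means and error bars for the SD. Each panel has its own FPKM axis from 0. The HFHG points of Plin2, Plin4, Dgat2 and Lipe lie above all low glucose points, those of Plin3 and Hilpda below, and the points of the other 4 genes overlap.

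Plin2 (NCBI gene 11520, minus strand of chr4:86648386-86670060 in GRCm38) encodes perilipin 2, the coat protein found on the droplets of most cells. Its promoter is shown with that of Lipe because these genes were both higher in HFHG, and that of Hilpda, which was lower, is shown beside them. RefSeq promoter sequences, from 250 bases before to 50 bases after a start site in GRCm38.p6, were matched for 8 of the 10 genes with 11 start sites, and none was used for Dgat1 and Dgat2. The motifs searched on both strands were the E-box CACGTG, the hypoxia response cores ACGTG and GCGTG, the hexamer AGGTCA bound by PPAR and related receptors and its direct repeat with 1 free base between, AGGTCANAGGTCA. ACGTG is contained in CACGTG. Capitals mark CACGTG in Plin2 (minus strand of chr4:86670058-86670119, from 60 bases before the start site to 2 bases beyond it) and in Lipe (minus strand of chr7:25396118-25396167, from 180 bases before the start site). In Hilpda (plus strand of chr6:29272511-29272625, from 115 bases before its second start site) they mark ACGTG and GCGTG.
Plin2: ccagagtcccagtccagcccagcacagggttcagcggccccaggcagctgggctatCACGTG
Lipe: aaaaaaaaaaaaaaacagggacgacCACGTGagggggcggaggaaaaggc
Hilpda: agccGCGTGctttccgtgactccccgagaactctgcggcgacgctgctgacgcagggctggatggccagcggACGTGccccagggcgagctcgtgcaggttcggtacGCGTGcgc

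CACGTG begins 4 bases before the Plin2 start site and 155 bases before 1 of the 2 Lipe start sites, and these were the 2 of 11 start sites of droplet genes with this motif, which 7.15% of 32851 mouse start sites hold. In Hilpda, ACGTG begins 43 bases and GCGTG 111 and 8 bases before its second start site. These cores were not confined to Hilpda: ACGTG lies within CACGTG of Plin2 and Lipe, and GCGTG lies on the opposite strand 86 bases before the Plin2 and 75 bases before the same Lipe start site, outside the stretches shown, and also at G0s2 and Plin5. ACGTG was found in 19.6% and GCGTG in 32.4% of all start sites, and in 3 and 7 of the 11. The PPAR hexamer lies 218 bases before the Plin2 start site on the opposite strand and was otherwise found at both Plin5 start sites (16.3% of all start sites), and the direct repeat was found at 0 of the 11 and at 0.0396% of all start sites. A match describes these letters only, and binding was not measured.

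The FPKM of Plin2 were 550.3, 542, 541 and 531 in the HFHG libraries of replicates 1 to 4, and 306, 297, 297 and 310.0 in the low glucose libraries. All 4 HFHG libraries lay above all 4 low glucose libraries, and the distance between the groups was many times the spread within them. The mean was 541 ± 7.91 (SD, n = 4) in HFHG and 302 ± 6.47 in low glucose, a log2 fold change of 0.84 (standard error 0.0222, adjusted p = 6.87e-12 in limma). Plin2 ranked 143 of all genes by mean FPKM and 626 of the tested genes by log2 fold change, and it was the most abundant of the 10.

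Plin3 (gene 66905, chr17:56277476-56292873, minus strand) encodes perilipin 3, a coat protein that moves between the cytosol and small, newly formed droplets. Its FPKM were 42.0, 43.8, 43.4 and 42.3 in HFHG, against 51.6, 50.2, 50.1 and 51.6 in low glucose. Here the HFHG libraries were the lower ones, again without overlap. Relative to low glucose, with a mean of 50.9 ± 0.857, Plin3 decreased by 15.7% to 42.9 ± 0.839 in HFHG (log2 fold change -0.25, standard error 0.0274, adjusted p = 5.16e-06). Thus Plin2 and Plin3 of the same family differed in opposite directions.

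Plin4 (gene 57435, chr17:56100591-56109803) and Plin5 (gene 66968, chr17:56111601-56117596) lie next to each other on the minus strand, 1797 bases apart, in a stretch of 192283 bases that ends with Plin3. Perilipin 4 coats small droplets in adipocytes and muscle, and perilipin 5 is the form of cells that oxidize much fat, such as cardiac muscle. Plin4 had 0.542, 0.323, 0.482 and 0.558 FPKM in HFHG and, in low glucose, 0.164, 0.130, 0.189 and 0.133. These levels are low, but the 4 HFHG libraries were above the 4 low glucose libraries. They rest on 456 reads in the HFHG and 143 reads in the low glucose libraries together, the ratio of the means was 3.09, and the exact two-sided permutation test gave p = 0.0286, the smallest that 70 arrangements of 4 against 4 libraries can give. A stretch of 17 exonic bases of Plin4 is shared with Hdgfl2 on the opposite strand, a gene at 8.95 to 11.8 FPKM. The strand setting of the counting is not given in the sources used here, so the part of Hdgfl2 reads in the Plin4 values was not tested.

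Plin5 was close to absent from the reads. A single read was found in HFHG replicate 1 and 0 in the other 3, against 1 in low glucose replicate 1, 6 in replicate 4 and 0 in the other 2. Without low glucose replicate 4, all libraries stood at or below 1 read, under the floor of 3 reads, which is 0.0394 to 0.0429 FPKM depending on the library. Over the groups, 1 against 7 reads gave a ratio of 0.139 with an exact 95% interval of 0.00309 to 1.08, which covers counting error only, and the exact permutation p on FPKM was 0.429. A difference in Plin5 was not detectable at this depth.

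Among the 5 perilipin genes, the adipocyte form Plin1 included, Plin2 made up 92.5 to 92.8% of the summed FPKM in the HFHG libraries and 85.5 to 85.7% in the low glucose libraries. Plin3 made up nearly all the rest, with 7.09 to 7.47% in HFHG and 14.3 to 14.4% in low glucose. The shares of Plin1, Plin4 and Plin5 were each below 0.1% in every library. The summed perilipin FPKM was 574 to 593 in HFHG and 347 to 362 in low glucose. So the summed coat transcripts were more abundant in HFHG and more dominated by Plin2, while Plin3 itself was lower. The replicates of a group hardly differed in this composition.

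The 2 enzymes of the last synthesis step differ in where they act: DGAT1 is confined to the endoplasmic reticulum, while DGAT2 can also sit at the droplet surface and lets droplets grow there. Dgat1 (gene 13350, chr15:76502015-76511953, minus strand) had 7.53, 8.91, 9.16 and 8.07 FPKM in the HFHG libraries and 8.54, 8.68, 7.96 and 9.32 in the low glucose libraries. The groups overlapped, with the lowest of the 8 values in HFHG and the highest among the low glucose libraries. Its log2 fold change was -0.04 with a 95% interval of -0.19 to 0.11 and an adjusted p of 0.647. The sign turned under some alternatives, from -0.08 to 0.02, with no call among 18.

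Dgat2 (gene 67800, chr7:99153658-99182719, minus strand) had 19.1, 19.8, 20.8 and 19.1 FPKM in HFHG, compared with 9.01, 8.78, 9.48 and 9.79 in low glucose. Every HFHG library was above every low glucose library, and the lowest of them, 19.1, stood far above the highest low glucose value of 9.79. Its mean was 19.7 ± 0.786 in HFHG and 9.27 ± 0.451 in low glucose, a ratio of 2.13 and a log2 fold change of 1.08 (standard error 0.0461, adjusted p = 5.86e-10). It ranked 364 of 11710 tested genes by log2 fold change.

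Within each library the Dgat2/Dgat1 ratio of FPKM does not depend on how the library was scaled. It was 2.53, 2.23, 2.27 and 2.37 in HFHG, against 1.06, 1.01, 1.19 and 1.05 in low glucose. In low glucose both transcripts were thus at about the same level, and in HFHG Dgat2 was the more abundant in all 4 libraries. The exact permutation test on the log2 ratio gave p = 0.0286, the smallest possible, and 0.0357 after Benjamini-Hochberg adjustment over the 5 ratios computed. The Plin2/Plin3 ratio was 12.4 to 13.1 in HFHG and 5.92 to 6.005 in low glucose with the same p-values.

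**Figure D2:**
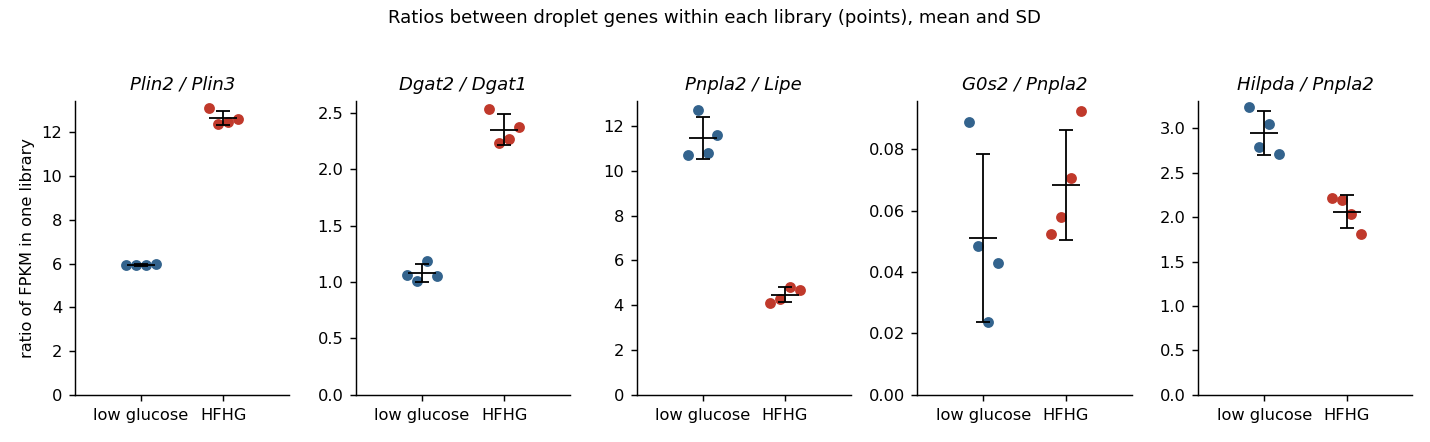
Ratios of FPKM between pairs of droplet genes within each of the 4 low glucose (blue) and 4 HFHG (red) libraries, with the mean and SD in black. Each panel has its own axis from 0. Plin2/Plin3 and Dgat2/Dgat1 are higher in all HFHG libraries, Pnpla2/Lipe and Hilpda/Pnpla2 are lower in them, and G0s2/Pnpla2 overlaps between the groups.

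Pnpla2 (gene 66853, chr7:141455198-141460743, plus strand) encodes ATGL, the enzyme that starts the breakdown of stored triglyceride. The HFHG libraries had 17.0, 16.8, 17.3 and 19.0 FPKM and the low glucose libraries 15.6, 16.8, 15.6 and 17.9. The highest library of each group was replicate 4, and the groups overlapped. With a log2 fold change of 0.09 (95% interval -0.03 to 0.21) and an adjusted p of 0.169, Pnpla2 was not called. It was called without low glucose replicate 4 (0.13, adjusted p = 0.0407) and with FPKM rescaled to the same sum in every library (0.15, adjusted p = 0.0259), and over 18 alternatives the adjusted p ran from 0.0259 to 0.438.

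Lipe (gene 16890, chr7:25379527-25398710, minus strand) encodes hormone-sensitive lipase, which acts mainly on diacylglycerol and also on sterol esters. It had 4.15, 3.90, 3.58 and 4.07 FPKM in HFHG and, in low glucose, 1.45, 1.32, 1.45 and 1.54. The lowest HFHG library, at 3.58, was more than double the highest low glucose library, at 1.54. The means were 3.92 ± 0.252 and 1.44 ± 0.0896, the ratio 2.72 and the log2 fold change 1.38 (standard error 0.0786, adjusted p = 8.80e-09), which made Lipe the droplet gene with the largest change among the 8 tested and number 200 of all tested genes in the main fit. With a pseudocount of 1, Lipe and Dgat2 were level at 1.01. The gene shares 918 exonic bases with an antisense gene on the plus strand whose level was not analysed here, and without the strand setting of the counting, reads of the pair cannot be told apart.

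In spite of its change, Lipe remained far below Pnpla2 in FPKM. The Pnpla2/Lipe ratio was 4.10, 4.30, 4.82 and 4.66 in the HFHG libraries and 10.7, 12.7, 10.8 and 11.6 in the low glucose libraries. The HFHG libraries were lower without overlap (exact permutation p = 0.0286, adjusted p = 0.0357), with ATGL transcripts still the more abundant in all 8 libraries.

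Both inhibitors act on ATGL. G0s2 (gene 14373, chr1:193272161-193273217, minus strand, inside the span of Lamb3 without shared exonic bases) encodes a small protein that binds ATGL directly. It had 0.889, 0.972, 1.22 and 1.75 FPKM in HFHG, compared with 1.38, 0.817, 0.368 and 0.767 in low glucose. The spread within each group was wide and the groups overlapped, since low glucose replicate 1 exceeded 3 of the 4 HFHG libraries. Between 11 and 54 reads per library stood behind these values. The log2 fold change of 0.56 had a 95% interval of -0.08 to 1.20 and an adjusted p of 0.114, so G0s2 was not called. It was called without low glucose replicate 1 (0.82, adjusted p = 0.0163) and was 0.26 without low glucose replicate 3 (adjusted p = 0.345), and over 17 alternatives the adjusted p ran from 0.0163 to 0.345.

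Hilpda (gene 69573, chr6:29272488-29275446, plus strand) encodes the hypoxia inducible lipid droplet associated protein, which inhibits ATGL as well. Its FPKM were 37.5, 36.7, 35.0 and 34.3 in HFHG, against 50.4, 46.9, 47.5 and 48.5 in low glucose. All HFHG libraries were below all low glucose libraries. The mean decreased by 25.7%, from 48.3 ± 1.53 in low glucose to 35.9 ± 1.47, with a log2 fold change of -0.43 (standard error 0.0359, adjusted p = 3.56e-07), the lowest of the 8 tested droplet genes. By level, Hilpda was the inhibitor transcript that prevailed, at 35.9 against 1.21 FPKM of G0s2 in HFHG and 48.3 against 0.834 in low glucose.

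Relative to the lipase, Hilpda/Pnpla2 was 2.21, 2.19, 2.03 and 1.81 in HFHG and, in low glucose, 3.24, 2.79, 3.05 and 2.71. The HFHG libraries were again lower without overlap (exact permutation p = 0.0286, adjusted p = 0.0357). G0s2/Pnpla2 was 0.0523 to 0.0924 in HFHG and 0.0237 to 0.0888 in low glucose, with overlap (exact permutation p = 0.257, adjusted p = 0.257). The overlap rested on low glucose replicate 1 at 0.0888. Without it the log2 difference rose from 0.54 to 0.86 (exact p = 0.0571, the smallest that 4 against 3 libraries can give), while it fell to 0.23 without low glucose replicate 3 and to 0.39 without HFHG replicate 4 (exact p = 0.514 for both).

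In the order of mean FPKM in low glucose, Plin2 came first at 302, followed by Plin3 at 50.9 and Hilpda at 48.3, whose libraries overlapped (50.1 to 51.6 and 46.9 to 50.4). Pnpla2 followed at 16.5, then Dgat2 at 9.27 and Dgat1 at 8.63, which overlapped too, Lipe at 1.44, G0s2 at 0.834, Plin4 at 0.154 and Plin5 at 0.0242. In HFHG the order was Plin2 at 541, Plin3 at 42.9, Hilpda at 35.9, Dgat2 at 19.7, Pnpla2 at 17.5, Dgat1 at 8.41, Lipe at 3.92, G0s2 at 1.21, Plin4 at 0.476 and Plin5 at 0.00328. Dgat2 moved past Pnpla2, and the other genes kept their places. The median log2 fold change of the 8 tested droplet genes was 0.32, against 0.02 over all tested genes. It is the middle of Pnpla2 and G0s2, which were not called, and ran from 0.16 (without low glucose replicate 3) to 0.44 (without low glucose replicate 1) when 1 library was left out. With a pseudocount of 1 it was 0.18, and with a minimum of 1 FPKM, which leaves out G0s2, it was 0.09.

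**Figure D3:**
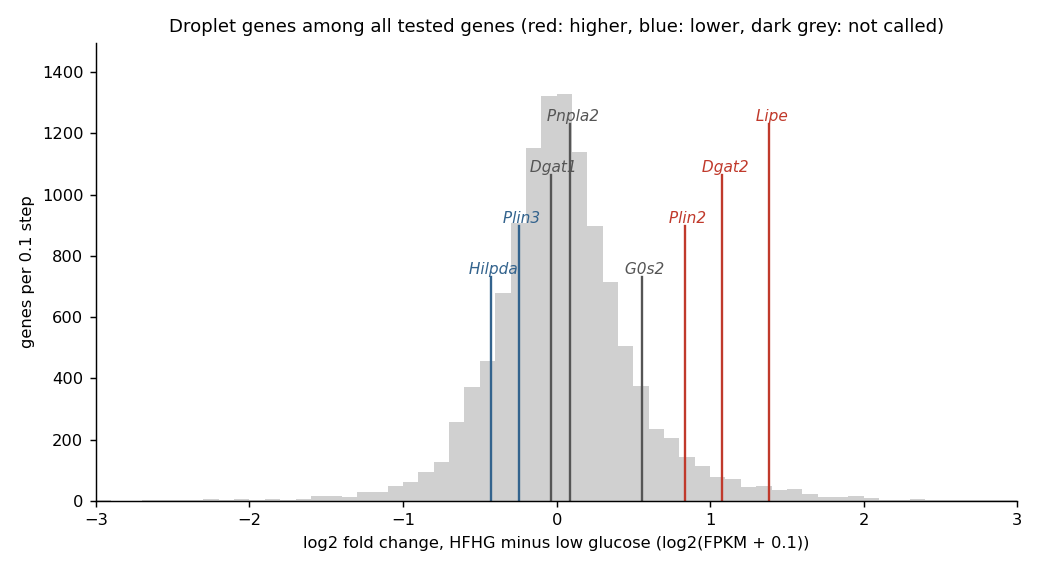
Histogram of the log2 fold change (HFHG minus low glucose) of all 11710 tested genes in steps of 0.1, with 12 genes beyond -3 or 3 not drawn, and vertical lines of arbitrary height for the 8 tested droplet genes. Lipe, Dgat2 and Plin2 lie in the right shoulder at 1.38, 1.08 and 0.84, Hilpda on the left side at -0.43, and Dgat1 and Pnpla2 near 0.

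The steps that lead to DGAT were described with a list of 17 genes of triglyceride and sterol ester synthesis. Of the 15 tested, 5 were higher in HFHG and 6 were lower, and their median log2 fold change was -0.09. These counts, like those of the lists that follow, stand beside 34.0% higher and 30.8% lower over all tested genes, whose median was 0.02. With FPKM rescaled to the same sum, 5 genes of the list were higher and 4 lower (median -0.03), beside 40.0% and 25.6%. Mogat2, which makes diacylglycerol from monoacylglycerol, had 3.17 ± 0.150 FPKM in HFHG and 1.24 ± 0.165 in low glucose (log2 fold change 1.29, adjusted p = 1.15e-07). Lpin1, a phosphatidate phosphatase that supplies diacylglycerol to DGAT, had 7.00 ± 0.249 and 2.87 ± 0.181 (1.26, adjusted p = 2.22e-09). Both thus differed in the direction and by about the size of Dgat2, whereas Gpam, a mitochondrial acyltransferase of the first step, was not called (0.10, adjusted p = 0.214). The sterol esterifying enzymes were lower: Soat1 had 21.4 ± 0.708 FPKM in HFHG and 37.2 ± 1.27 in low glucose (-0.79, adjusted p = 1.15e-09), and Soat2 0.758 ± 0.157 and 3.13 ± 0.638 (-1.91, adjusted p = 2.51e-07).

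Beside Pnpla2 and Lipe, 8 further lipolysis genes were listed. Of the 6 tested, 2 were higher and 3 lower (median -0.11), beside the 34.0% and 30.8% of all tested genes. Mgll, which cleaves the last fatty acid from monoacylglycerol after HSL has acted, had 3.91 ± 0.479 FPKM in HFHG and 1.75 ± 0.179 in low glucose (log2 fold change 1.11, adjusted p = 6.85e-07), and Ddhd2, a triglyceride lipase of neurons, was also higher (0.23, adjusted p = 0.00136). Abhd5, the coactivator that ATGL needs for full activity, was lower at 19.5 ± 0.524 against 22.6 ± 0.518 FPKM (-0.21, adjusted p = 1.48e-04). Lower as well were Lipa, the acid lipase of lysosomes (-0.26, adjusted p = 1.99e-05), and Ldah, a droplet associated hydrolase (-0.51, adjusted p = 4.80e-06). Abhd6, which like Mgll cleaves monoacylglycerol, was not called (-0.01, adjusted p = 0.930).

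Droplet formation and other droplet proteins were described with 16 genes, of which 10 were tested, 6 of them higher and 2 lower (median 0.10), again beside 34.0% and 30.8%. These differences were small next to those of Plin2 and Dgat2. Fitm2, which aids the budding of droplets from the endoplasmic reticulum, had 13.6 ± 0.478 FPKM in HFHG and 10.3 ± 1.60 in low glucose (log2 fold change 0.42, adjusted p = 9.24e-04). Bscl2, encoding seipin at the sites of droplet formation, had 20.3 ± 0.632 and 17.5 ± 0.757 (0.21, adjusted p = 4.86e-04). Aup1, a droplet protein that also takes part in protein degradation at the endoplasmic reticulum, was lower (-0.35, adjusted p = 1.04e-05), and so was the droplet dehydrogenase gene Hsd17b11 (-0.13, adjusted p = 0.0158), whose call was lost with FPKM rescaled to the same sum (-0.07, adjusted p = 0.149). With median-ratio scaling 2 genes of the list were higher and 3 lower (median 0.065, beside 30.3% and 34.6% over all tested genes). With the rescaled FPKM the counts were 7 and 1 (median 0.16, beside 40.0% and 25.6%). Plin1 of adipocyte droplets stood at 0.0323 ± 0.0179 FPKM in HFHG and 0.0147 ± 0.0293 in low glucose.

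**Figure D4:**
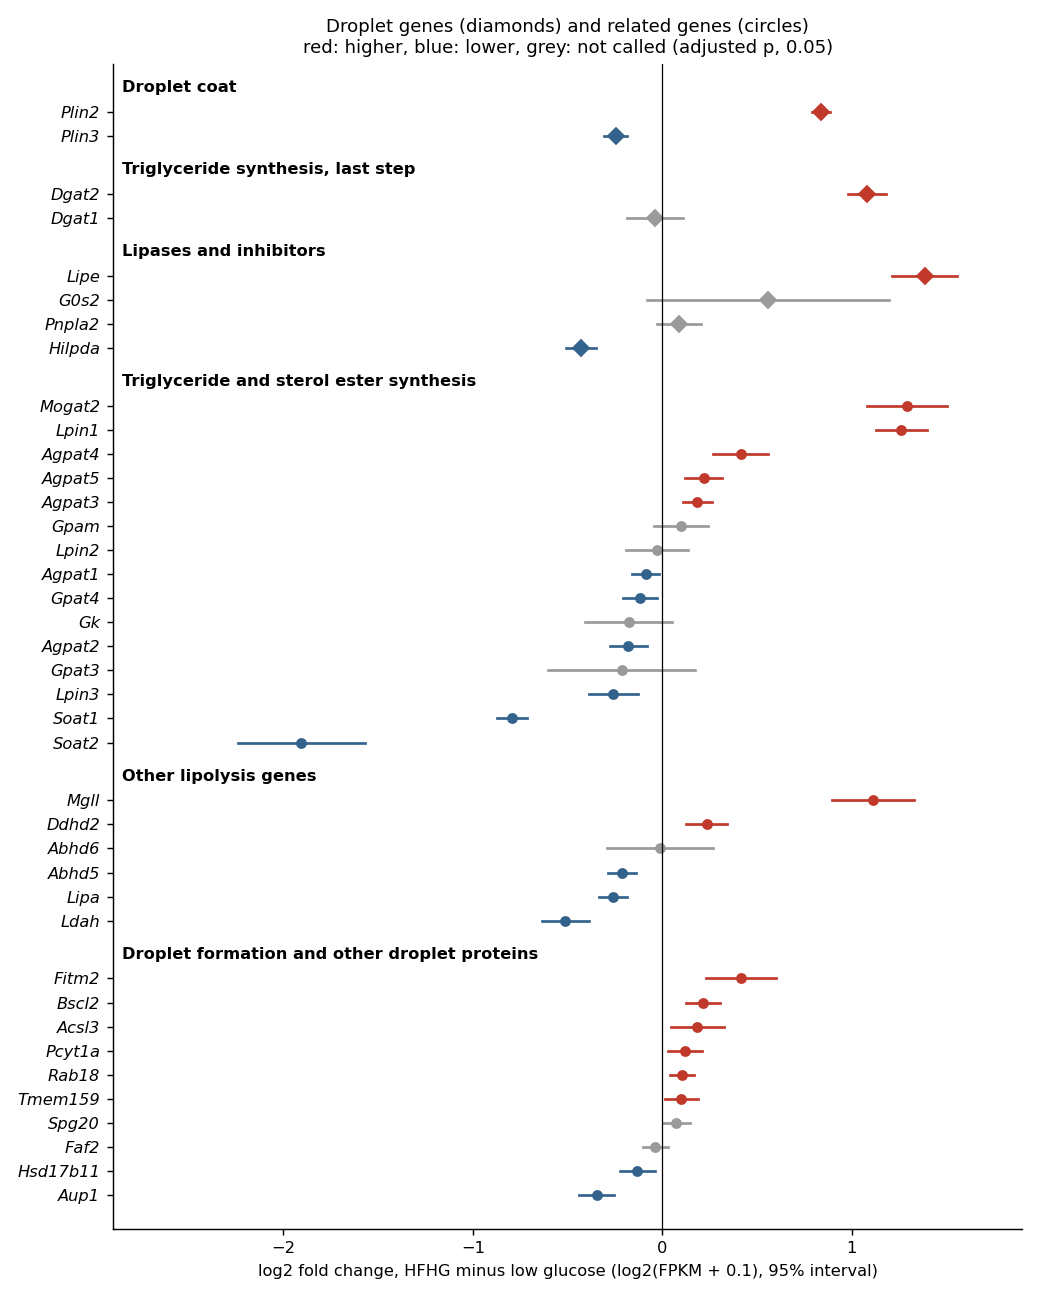
Log2 fold change (HFHG minus low glucose, on log2(FPKM + 0.1)) with its 95% interval for the tested droplet genes (diamonds) and the tested genes of 3 related lists (circles), ordered within each role. Red marks genes called higher, blue those called lower and grey those not called at an adjusted p-value of 0.05. Lipe, Dgat2 and Plin2 stand at the right with Mogat2, Lpin1 and Mgll, and Soat2 and Soat1 at the left.

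Several droplet genes are known targets of PPAR nuclear receptors, which bind fatty acids, and Hilpda is also known as a target of hypoxia inducible factors, so the rest of both groups was set beside them. Of 13 tested fatty acid responsive PPAR targets, 11 were higher in HFHG and 2 lower (34.0% higher and 30.8% lower over all tested genes), and their median log2 fold change was 0.48. The largest were Pdk4, an inhibitor of glucose oxidation (4.65, adjusted p = 2.25e-14), and Angptl4, a secreted lipase inhibitor (1.55, adjusted p = 3.39e-13), while Fabp3 (-0.95, adjusted p = 8.06e-08) and Acot2 (-0.82, adjusted p = 1.19e-08) were lower. Plin2 at 0.84 lay between the median and the largest of these. Of 13 hypoxia inducible factor targets, 2 were higher and 8 lower (34.0% and 30.8% over all tested genes), with a median of -0.35 (-0.13 after quantile normalization), beside Hilpda at -0.43. The glucose transporter gene Slc2a1 (-1.04, adjusted p = 2.46e-12) and Car9 (-0.76, adjusted p = 8.24e-09) were the lowest, and Adm (0.97, adjusted p = 4.37e-13) and Ldha (0.12, adjusted p = 4.55e-04) were higher. The part of either group of factors in the droplet genes was not tested.

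The profile over the 8 libraries nearest to that of Lipe, by Euclidean distance of centred log2 values, was that of Gzme (0.202), followed by Hspb7 (0.204) and Nuak1 (0.212). Nearest to Hilpda were Esyt1 (0.0814), Trappc4 (0.0820) and Cnpy3 (0.0849). These genes are named for the likeness of their profiles alone.

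The label of the cells was compared with marker lists, since droplet genes differ in level between cell types. All 11 tendon cell markers were tested, with 8 higher and 2 lower in HFHG beside 34.0% and 30.8% of all tested genes (median 0.53), and their summed FPKM was 4177, 4228, 4182 and 4207 in the HFHG libraries and 3023, 3028, 3011 and 3057 in the low glucose libraries. Bgn was the most abundant of them, and the defining genes Scx and Tnmd were low, at 2.27 ± 0.558 and 1.10 ± 0.0908 FPKM in HFHG and 1.45 ± 0.336 and 0.614 ± 0.298 in low glucose, and both were called higher (0.61, adjusted p = 0.0138, and 0.86, adjusted p = 0.0164). Col1a1 (1.36, adjusted p = 1.95e-13) and Thbs4 (1.14, adjusted p = 5.34e-13) had the largest log2 fold changes, and Egr1 (-0.40, adjusted p = 3.80e-06) and Mkx (-0.35, adjusted p = 7.49e-04) were lower. Of the 4 stem cell surface markers, Ly6a (0.72), Thy1 (0.60) and Eng (0.50) were higher and Cd44 (-0.13) was lower, with adjusted p between 6.05e-11 and 5.43e-04, and their sum, led by Ly6a, was 1011, 1029.9, 1040.4 and 1034 against 664, 665, 668 and 694.

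Adipocytes would hold Plin1, Plin4, Lipe, G0s2 and Dgat2 at high levels. Of 10 adipocyte markers 9 were in the table and 2 were tested, Fabp4, the most abundant of the list (1.36, adjusted p = 8.26e-10), and Cebpa, which was not called (0.10, adjusted p = 0.171) but was with FPKM rescaled to the same sum (0.16, adjusted p = 0.0359). The summed FPKM of the list was 85.6, 81.1, 79.6 and 80.5 in HFHG, compared with 35.9, 40.5, 41.1 and 39.2 in low glucose, and without Fabp4 it was 11.9 to 14.4 and 11.8 to 13.2. The defining markers Adipoq, Plin1, Lep, Retn and Cidec had group means of at most 0.131 FPKM, Slc2a4 and Pparg had at most 0.319, and Cidec was at 0 in all low glucose libraries. Fabp4 moved in the same direction as Plin2, Dgat2 and Lipe. It is also a PPAR target and is made by macrophages as well, and the origin of its change was not tested.

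Macrophages are rich in Plin2 as well. Of 14 macrophage markers 13 were tested, 2 of them higher in HFHG and 9 lower (34.0% higher and 30.8% lower over all tested genes), and the median log2 fold change was -0.31. The summed FPKM was 1850.1, 1824, 1815 and 1801 in HFHG, against 1983, 2001.5, 2021 and 2072.5 in low glucose. Lyz2 made up most of it, and without Lyz2 the sum was 182 to 188 in HFHG and 247 to 261 in low glucose. Macrophage transcripts were thus not low, and Lyz2 ranked 15 of all genes by mean FPKM. Tyrobp (42.2 in HFHG, 64.8 in low glucose), Cd68 (34.4 and 42.5) and Adgre1 (26.5 and 38.0) stood above Scx and Tnmd. Ptprc (1.98 and 2.26), Fcgr1 (1.27 and 1.19) and Aif1 (1.445 and 1.127) were near the level of Scx and Tnmd. C1qa (-0.97, adjusted p = 2.58e-09) and Mrc1 (-0.86, adjusted p = 2.35e-07) were the lowest, Cd14 (0.26, adjusted p = 1.09e-04) and Aif1 (0.33, adjusted p = 0.0495) were higher, with the call of Aif1 lost under median-ratio scaling (adjusted p = 0.0766) and quantile normalization (0.225), and Cd163 was near 0. The 9 lower markers moved in the direction of Plin3 and Hilpda, Cd14 and Aif1 in that of Plin2, Dgat2 and Lipe, and Ptprc and Fcgr1 were not called. Their part in the droplet genes was not tested. In bulk RNA, fewer cells of a type and less RNA per cell cannot be told apart.

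Markers of muscle and vessels were low. Of 7 skeletal muscle markers 6 were in the table and Acta1 was the single one tested and the most abundant (log2 fold change -1.82, adjusted p = 5.23e-07), with a sum of 0.767 to 1.84 FPKM in HFHG and 3.59 to 4.44 in low glucose, and Myod1 was at 0 in all HFHG libraries. The 5 endothelial markers were all below the filter, with sums of 0.450 to 0.615 FPKM in HFHG and 0.450 to 0.576 in low glucose. By mean FPKM they were led by Pecam1 in HFHG and by Kdr in low glucose.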

How the data were processed

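The 8 libraries were assigned to the HFHG and low glucose groups by their titles. The authors deposited FPKM for 19301 genes. HISAT2 2.1.0 and the build mm10 are named in the submitters' processing notes, and the counting program, annotation and strand setting are not given in the sources used here. Whole reads were recovered from the FPKM for 100% of genes (relative tolerance 1e-06) and served for depth, for genes with few reads and for an alternative. Depth differed little between the libraries (35385644 to 37362725 reads in HFHG, 34308108 to 36308533 in low glucose), and Plin4, Plin5 and G0s2 rest on the fewest reads of the droplet genes. All columns of values were used.

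Genes with at least 0.5 FPKM in at least 4 libraries were tested with limma 3.58.1 in R 4.3.3 on log2(FPKM + 0.1), with an intensity trend, no covariates and Benjamini-Hochberg adjustment over 11710 genes. The fit was also run on simulated data with far fewer changed genes than were called here, so that run does not vouch for these calls. Genes below the filter and 5 ratios were compared with exact two-sided permutation tests (scipy 1.17.1). Named genes were the 10 droplet genes, the 2 called genes with the largest and the 2 with the smallest log2 fold change of each list, Abhd5, Mgll, Plin1, Bscl2 and Gpam, and the 3 genes nearest in profile to the droplet genes with the largest and smallest log2 fold change. Further genes (such as Scx, Tnmd, Cebpa, Abhd6 and the markers at 0) were named after their values were seen. The droplet genes and the lists were chosen with earlier results of these data known. Gene positions come from GENCODE M21 (GRCm38). As alternatives the pseudocount was 1 or 0.01, the filter was dropped or raised to 1 FPKM, values were scaled by quantiles, by median ratios or to a common sum, the replicate number was a block, eBayes was robust, voom was run on the recovered reads, and each library was left out in turn. No list test was made.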

Additional observations from a re-analysis of the deposited data

Results flagged for a closer look

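In 30 groups of 4 libraries (the 10 droplet genes and the 5 ratios in each medium), the gap between the most extreme library and its neighbour was divided by the range of the group and compared with Dixon's 95% critical value. It was above this value in 2 groups, where chance gives about 1 in 20 groups. For Plin5 in HFHG the quotient was 1, because replicate 1 had 0.0131 FPKM from 1 read and the other 3 libraries were at 0. For the Plin2/Plin3 ratio in low glucose it was 0.948, with replicate 4 at 6.005 and the other 3 libraries between 5.92 and 5.93. This is a small step on a ratio whose HFHG values lie at 12.4 to 13.1.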

How the results depend on the processing

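Plin2, Dgat2 and Lipe remained higher and Plin3 and Hilpda lower at an adjusted p-value below 0.05 under each of the 18 alternatives. Their log2 fold changes ranged from 0.80 to 1.07 for Plin2, 1.01 to 1.14 for Dgat2, 1.01 to 1.44 for Lipe, -0.28 to -0.19 for Plin3 and -0.47 to -0.37 for Hilpda. Dgat1 was called under none (-0.08 to 0.02). Pnpla2 was called when all libraries were rescaled to an equal sum (0.15), and its log2 fold change ranged from 0.049 to 0.13 when 1 library was left out, with a call without low glucose replicate 4. For G0s2 the range was 0.26 to 0.82, with a call without low glucose replicate 1, and a minimum of 1 FPKM left it untested. The cause was not tested. With a pseudocount of 1, which shrinks the change of low genes, 197 genes passed the fold change rule upward and 106 downward, against 431 and 193. Of all genes, 4682 were higher and 3002 lower at an adjusted p-value below 0.05 after rescaling to an equal sum, and 3548 and 4053 after median-ratio scaling, against 3983 and 3609, so the balance of higher and lower calls turns with the scaling.

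Plin4, below the filter, had a log2 fold change of 1.17 without a filter (adjusted p = 3.48e-04) and 1.61 with voom on recovered reads without a filter (adjusted p = 4.29e-05), an alternative chosen after seeing the data. Plin5 had -0.22 and -0.95 (adjusted p = 0.394 and 0.440).

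With 1 library left out, the log2 difference of the ratios ranged from 1.09 to 1.18 for Dgat2/Dgat1, 1.07 to 1.10 for Plin2/Plin3, -0.56 to -0.46 for Hilpda/Pnpla2 and -1.39 to -1.30 for Pnpla2/Lipe, and the exact p of these 4 was 0.0571, the smallest that 4 against 3 libraries can give. For G0s2/Pnpla2 it ranged from 0.23 to 0.86 (exact p 0.0571 to 0.514). No shared deviation of same-numbered libraries was seen: their deviations correlated at -0.0736 to -0.00558, and no library correlated best with its own number. The labels do not say whether same numbers mark a shared origin, so a pairing is not excluded. With the replicate block (paired by number), 3841 genes were higher and 3501 lower, and no droplet gene changed its call. The exact paired sign-flip test of Dgat2/Dgat1 (1.13), Plin2/Plin3 (1.09), Hilpda/Pnpla2 (-0.52) and Pnpla2/Lipe (-1.35) gave p = 0.125, the smallest that 4 pairs can give, and that of G0s2/Pnpla2 (0.54) gave 0.375. Depth limits Plin5.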

Other observations

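Terms of the annotation in the deposited table, chosen after the values of the droplet genes were seen, gave a wider view. Of 95 genes annotated to lipid droplets, 69 were tested, 27 of them higher in HFHG and 26 lower, beside 34.0% and 30.8% of all tested genes, and the median log2 fold change was 0.01. Without the droplet genes above, 63 were tested, with 24 higher and 24 lower. With FPKM rescaled to the same sum the 69 genes gave 30 higher and 20 lower (40.0% and 25.6% over all tested genes), and with median-ratio scaling 20 and 28 (30.3% and 34.6%). Lipe, Dgat2, Rdh10 (0.96, adjusted p = 7.12e-05) and Plin2 had the largest log2 fold changes of the 69, and Hsd3b7 (-0.58, adjusted p = 5.35e-06) and Set (-0.56, adjusted p = 1.40e-09) the lowest. Of 22 tested genes annotated to lipid storage, 12 were higher and 5 lower (median 0.15), and of 14 tested for triglyceride biosynthesis, 5 were higher and 4 lower (median 0.03). Of 15 genes annotated to triglyceride catabolism 10 were below the filter, and of the other 5, 4 were higher and 0 lower (median 0.28), all beside the same 34.0% and 30.8%. With the rescaled FPKM these 3 terms gave 13 and 5, 6 and 2 (median 0.09), and 5 and 0, and with median-ratio scaling 10 and 6, 5 and 4 (median -0.001), and 4 and 0, beside the shares named for these scalings. The 4 catabolism genes called in the main fit were Lipe, Lipg (1.17, adjusted p = 1.27e-05), Lpl, at 179 ± 2.91 FPKM in HFHG and 148 ± 2.74 in low glucose (0.28, adjusted p = 3.56e-07), and Ddhd2, and the fifth was Pnpla2. Lipg and Lpl encode lipases that act on lipoproteins outside the cell.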
